A study of Rattus norvegicus with 14 samples.

Results

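Gene expression was measured in 3 lateral prostate samples of Noble rats given testosterone with a high amount of bisphenol A (T+high BPA). It was compared with that of 4 samples from Noble rats given testosterone with estradiol (T+E2). These 7 arrays are all the arrays of their groups among the 14 of the series, and every one of the 17802 probe sets entered the comparison. All rats were males aged 48 weeks, and both groups shared the 30 mg of testosterone. T+high BPA rats also received 320 mg of bisphenol A, while T+E2 rats received 15 mg of estradiol, in Silastic capsules under the skin for 32 weeks. The other groups were T+low BPA, with 30 mg of testosterone and 15 mg of bisphenol A (n = 3), and Control, with empty capsules (n = 4). The amounts of the 2 estrogenic compounds differ, so a difference below is one between these treatments as given and not between the compounds at a matched dose. A group with testosterone alone was not analysed here. The labels call each sample the tissue of a rat without numbering the animals, so each p-value rests on the spread among the samples of a group, part of which may be technical.

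Estradiol is the steroid that binds both nuclear estrogen receptors, Esr1 and Esr2, with high affinity, whereas bisphenol A is a non-steroidal monomer of plastics that binds them weakly. In the rodent prostate, Esr1 is known mainly from the stroma and Esr2 from the secretory epithelium, and Noble rats kept on testosterone and estradiol develop dysplasia of the lateral lobe. Estradiol also raises prolactin from the pituitary, and prolactin acts on the lateral lobe through Stat5.

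The main pattern was a set of genes with low values in T+high BPA and high values in T+E2, led by genes best known from the gut and from goblet cells. Here and below, fell and rose mean lower and higher in T+high BPA than in T+E2, and not a change from Control. Against Control, 1 probe set was called for T+high BPA (0.00562%) and 535 for T+E2 (3.01%). Clca1, a secreted protein of goblet cell mucus, fell by 7.02 on the log2 scale, and the gut chemokine Ccl25 fell by 3.98. In the other direction the steps were smaller. The adhesion protein Cdh7 rose by 3.10, Ugt2b10, an enzyme that conjugates steroids for excretion, rose by 2.33, and genes of protein folding in the endoplasmic reticulum, fatty acid oxidation and glycerolipid synthesis rose by less than 2 each. The nuclear receptor genes Esr1 and Hnf4a differed by 0.08 and -0.03 and were not called, while Esr2 rose by 1.14.

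Values are log2 RMA values, so 1 unit is a 2-fold step, and a difference is the T+high BPA mean minus the T+E2 mean. A probe set is called when limma's p, adjusted over all 17802 probe sets with the method of Benjamini and Hochberg, is below 0.05, and every adjusted p given here is of that kind. In this comparison 1724 probe sets were called (9.68% of those tested), of which 1081 were higher in T+high BPA (6.07%) and 643 lower (3.61%). The unadjusted p was below 0.05 for 4793 probe sets (26.9%). Calls of at least 2-fold were more even, with 95 higher (0.534%) and 134 lower (0.753%). Steps of at least 4-fold were rarer still, with 3 higher and 38 lower. Without regard to the test, the 3 T+high BPA arrays lay above all 4 T+E2 arrays for 2149 probe sets (12.1%) and below them for 2530 (14.2%). Calls with no overlap of arrays numbered 1678 (9.43%). Of the calls, 58 of the higher and 63 of the lower had no gene symbol and are not described. Leaving out 1 array moved the number called by more than 1.5 times in 4 cases. It was 884 without T+high BPA replicate 1, 945 without T+high BPA replicate 2, 1074 without T+high BPA replicate 3 and 1073 without T+E2 replicate 1. After quantile normalization 1205 probe sets were called, 706 higher and 499 lower, and 1062 of them were among the 1724. Of the 149 called genes examined by name, 85 kept their call in every one of the 27 alternatives that left the threshold as it was and tested them, 34 lost it in 1 to 5 and 30 in more than 5.

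The arrays differed in spread as well as in single genes. The SD over all probe sets was 1.90 to 1.91 in T+high BPA against 1.77 to 1.85 in T+E2. With it, the median difference followed the level of the probe sets, from -0.15 over the 1549 probe sets with a mean level below 4 to 0.14 over the 631 above 10, and it was -0.05 over all. After quantile normalization these medians were between -0.01 and 0.02. Small differences of brightly measured genes are to be read against a median of 0.10 over the 1165 probe sets at a level of 9 to 10.

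**Figure D1:**
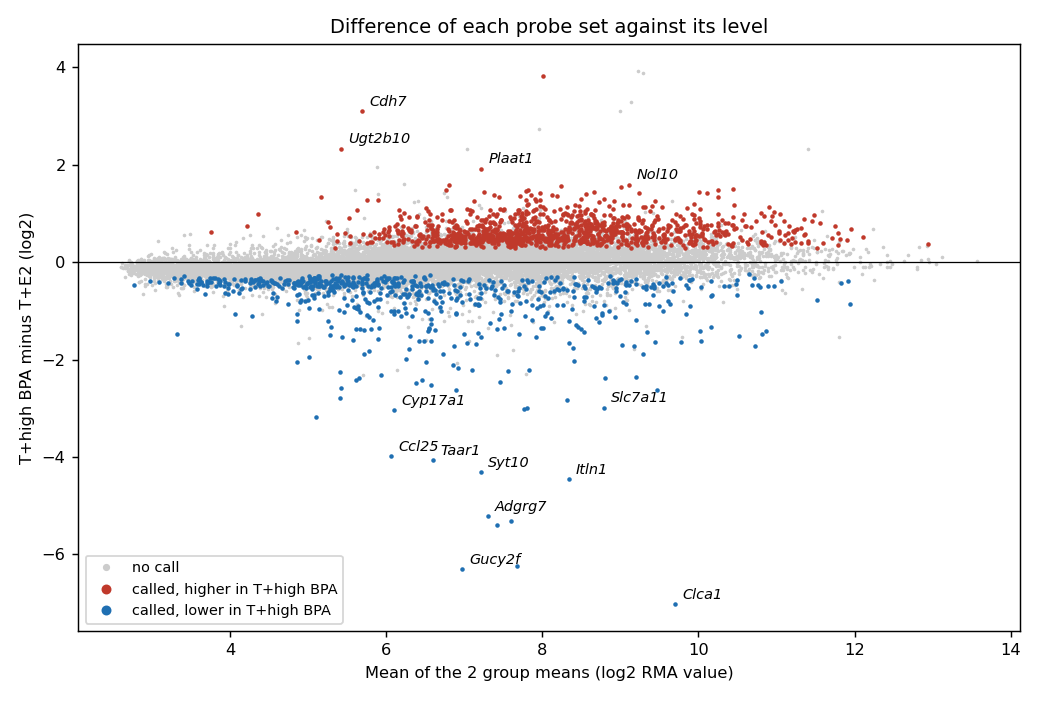
Difference between T+high BPA and T+E2 (log2, vertical) of each of the 17802 probe sets against the mean of both group means (log2 RMA value, horizontal). Red points are the 1081 called higher in T+high BPA, blue points the 643 called lower and grey points were not called; the lower calls reach -7.02 for Clca1, while the called genes named above 0 reach 3.10 for Cdh7.

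Pbsn and Msmb, markers of the labelled tissue, had high values in both groups. Pbsn is also among the ventral prostate genes listed below, so it does not tell the lobes apart. Pbsn, the androgen-dependent secretory protein probasin of the dorsolateral prostate, averaged 12.87 in T+high BPA and 12.82 in T+E2, with a difference of 0.05 (95% interval -0.25 to 0.35). Msmb, a secreted protein of prostatic fluid, was at 12.93 to 13.18 in T+high BPA and 12.60 to 12.85 in T+E2, and its difference of 0.33 was not called (adjusted p = 0.11). Of the 9 dorsolateral markers 0 were called by limma, and 1 had an unadjusted p below 0.05. Tgm4 of this list varied more, from 6.84 to 10.26 in T+high BPA and from 8.32 to 11.96 in T+E2. The mean over 11 secretory genes of the ventral prostate, a neighbouring lobe, was 8.73, 9.86 and 8.37 in T+high BPA against 6.69, 9.73, 7.25 and 6.42 in T+E2. Replicate 2 of both groups was high, and so was Control replicate 4 at 9.88. Of these 11 genes Cst6 was called, higher in T+high BPA, and 6 were higher with those 3 arrays left out. T+high BPA replicates 1 and 3, which stayed in, also lay above every remaining array of the series, at 5.97 to 7.25. Sbp of this list was at 12.70, 13.25 and 11.76 in T+high BPA. In T+E2 it was at 9.01, 13.07, 10.14 and 8.78, and it was not called (limma adjusted p = 0.256). The mean of 18 skeletal muscle genes was 6.28, 6.27 and 8.21 in T+high BPA against 6.32, 7.66, 8.78 and 7.82 in T+E2, and the groups overlapped in both lists. In whole tissue, fewer cells of a type and less RNA per cell cannot be told apart, and the part that adjoining tissue has in the results below was not tested except where values are given.

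**Figure D2:**
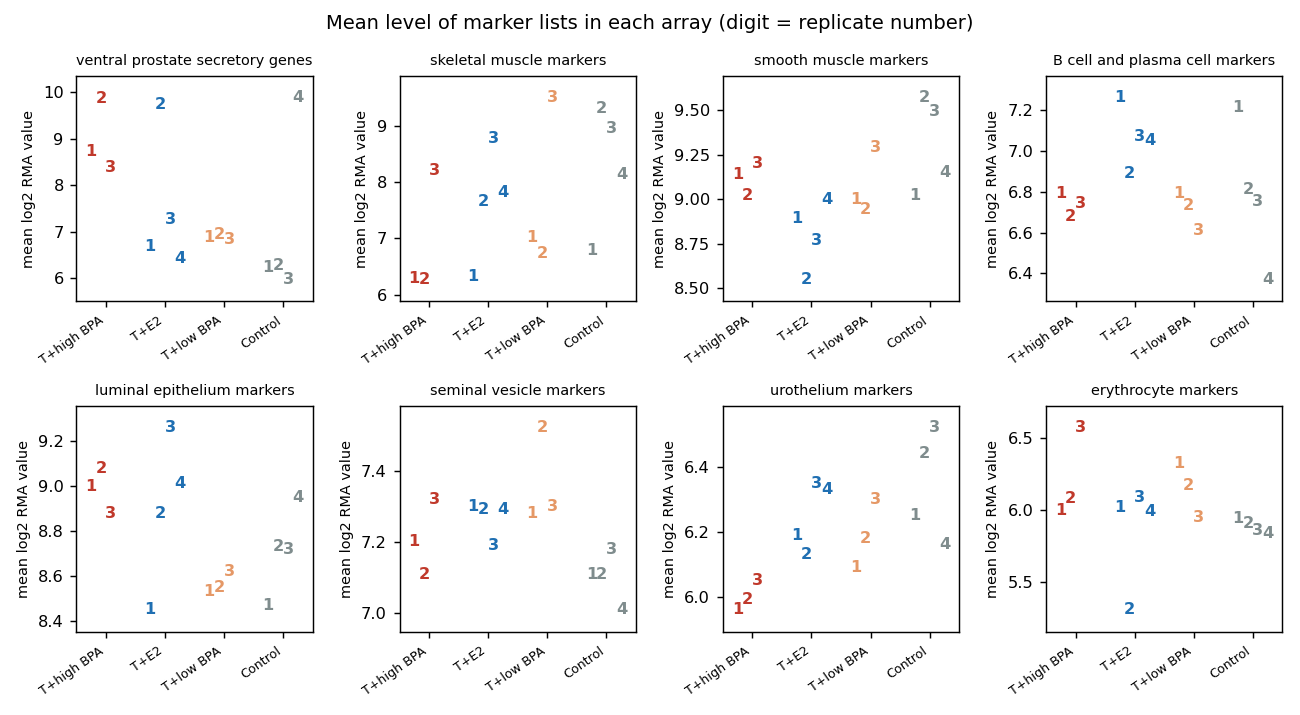
Mean log2 RMA value of 8 marker lists in each array, by group; each digit is the replicate number of an array. In T+high BPA, replicate 2 has the highest mean of ventral prostate secretory genes, 9.86, while the skeletal muscle mean is near 6.3 in replicates 1 and 2 and 8.21 in replicate 3.

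Gut and goblet cell genes held several of the largest falls. Over all probe sets 9.68% were called, with 3.61% on the lower side. Of 22 goblet cell and mucus genes measured, 6 were lower and 1 higher in T+high BPA (31.8% called). Of 29 gut epithelial genes 7 were lower and 1 higher (27.6% called). Their median differences were -0.29 and -0.30, against -0.05 over all probe sets and -0.13 over those at a level of 5 to 6, where the mean of the gut genes lies in T+high BPA. After quantile normalization the medians were -0.26 and -0.19. Clca1 was at 5.46, 6.03 and 7.07 in T+high BPA against 13.24, 13.13, 13.26 and 13.20 in T+E2 (adjusted p = 0.000198). T+E2 arrays were close to one another and far above every other array of the series, while Control spread over 5.65 to 10.85. Its relative Clca4 was at 8.16, 7.68 and 8.63 in T+high BPA and 10.72, 10.65, 11.03 and 10.76 in T+E2 (adjusted p = 9.3e-05). Agr2, the disulfide isomerase that mucins need to fold, was at 10.42, 10.47 and 8.71 in T+high BPA and 11.15, 11.57, 11.95 and 11.66 in T+E2, a fall of 1.72 (adjusted p = 0.00735). Here the 2 bisphenol A groups stood apart from each other as well, since T+low BPA was at 7.62 to 8.12. Gcnt3, which builds the branches of mucin sugars, fell by 1.88, and the membrane mucins Muc1 and Muc16 fell by 0.64 and 0.53. The call on Muc16 was lost in 4 alternatives, quantile normalization and cyclic loess among them, and that on Agr2 in 1, the block on 7 arrays. Spdef, a transcription factor of goblet cell maturation, went the other way with a difference of 0.68 (adjusted p = 0.0425), a call lost in 13 of the 27 alternatives, quantile normalization and cyclic loess among them.

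Among the gut epithelial genes, Adgrg7, an adhesion G protein-coupled receptor of the intestine, was at 4.73, 4.57 and 4.78 in T+high BPA against 9.68, 10.10, 10.16 and 9.67 in T+E2 (adjusted p = 2.69e-06). Ccl25, the chemokine that draws Ccr9-bearing lymphocytes to the small intestine, was at 4.09, 4.01 and 4.11 in T+high BPA against 7.54, 7.83, 8.43 and 8.40 in T+E2 (adjusted p = 9.29e-07). In both genes the T+high BPA values were as low as most Control values, of which Control replicate 1 was the highest at 7.04 for Adgrg7 and 5.27 for Ccl25. Lgals4, a lectin of gut epithelium, fell by 2.12, and the chloride channel Cftr fell by 1.51. Anpep, a brush border peptidase, fell by 0.69. Cdx2, the transcription factor that specifies intestinal epithelium, was at 5.04 to 5.21 in T+high BPA and 5.49 to 5.70 in T+E2, a fall of 0.49 (adjusted p = 0.00644). The least of the falls was that of Phgr1 at 0.39. Gucy2c, the gut receptor of guanylin, was higher by 0.75 (adjusted p = 0.0109). Under the alternatives for normalization, blocking and tissue covariates, 4 to 6 goblet cell genes and 5 to 8 gut genes were lower. Spdef, Gucy2c and Phgr1 were chosen after their values were seen.

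Genes outside these lists fell by as much. Gucy2f, a membrane guanylyl cyclase known from retinal photoreceptors, was at 3.82, 3.94 and 3.69 in T+high BPA against 10.49, 9.79, 10.10 and 10.09 in T+E2. The log2 difference was -6.30 (adjusted p = 1.25e-12), and T+low BPA and Control were at 3.82 to 4.11, as low as T+high BPA. The T+high BPA values lie below the 10th percentile of their arrays, 4.02 to 4.03, and no measure of background was used here. For this and other genes near that level a difference may be understated. Itln1, a lectin that binds bacterial sugars, was at 5.57, 6.26 and 6.50 in T+high BPA and 9.65, 10.46, 11.34 and 10.86 in T+E2 (adjusted p = 0.00462). Control did not share the low level of T+high BPA here, with 10.48, 11.04, 7.02 and 7.13. Syt10, a calcium sensor of vesicle release in neurons, was at 5.16, 4.89 and 5.13 in T+high BPA and 9.06, 9.49, 9.39 and 9.54 in T+E2 (adjusted p = 3.54e-09). Taar1, a receptor for trace amines, was at 4.56, 4.47 and 4.68 in T+high BPA against 8.67, 8.63, 8.61 and 8.64 in T+E2, with T+E2 values within 0.06 of each other. Anxa13, an annexin of intestinal epithelium, fell by 3.18, the zinc finger protein gene Zbtb40 fell by 3.02, and Pls1, an actin bundler of microvilli, fell by 3.0. Khdrbs2, an RNA-binding protein of neurons, and Akr1b10, an aldo-keto reductase, fell by 2.78 and 2.63. The calls on these 15 most lowered genes, Slc7a11 and Cyp17a1 included, were kept in every array left out and in every normalization, covariate and block tried.

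**Figure D3:**
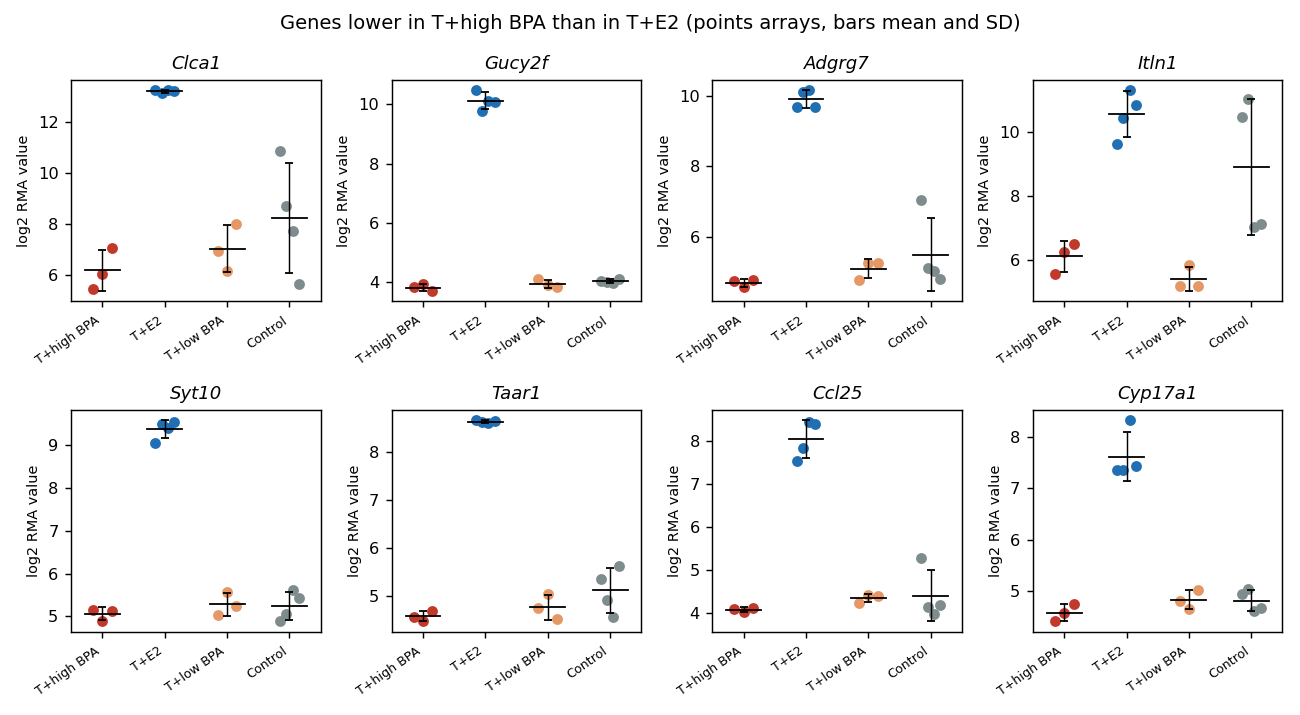
Log2 RMA values of 8 genes that were lower in T+high BPA than in T+E2; points are arrays, the horizontal bar is the group mean and the whisker its SD (n = 3, 4, 3 and 4 arrays). All T+E2 points lie above all T+high BPA points in each panel, and the Control points of Clca1 and Itln1 are spread widely, with Itln1 at 11.04 and 7.02 among them.

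Sequences upstream of 4 of the most changed genes are shown because they hold the half-site that nuclear receptors, the estrogen receptors among them, can bind. They are RefSeq promoters of the rat assembly GRCr8, 250 bases before to 50 bases after the gene start, 5′ to 3′ on the strand of the gene, and the capitals mark AGGTCA or its reverse complement TGACCT. Gucy2f lies on chrX:110604968-110605267 (minus strand), Zbtb40 on chr5:154567124-154567423 (minus strand), Akr1b10 on chr4:64005382-64005681 (plus strand) and Cdh7 on chr13:27197332-27197631 (plus strand).
Gucy2f: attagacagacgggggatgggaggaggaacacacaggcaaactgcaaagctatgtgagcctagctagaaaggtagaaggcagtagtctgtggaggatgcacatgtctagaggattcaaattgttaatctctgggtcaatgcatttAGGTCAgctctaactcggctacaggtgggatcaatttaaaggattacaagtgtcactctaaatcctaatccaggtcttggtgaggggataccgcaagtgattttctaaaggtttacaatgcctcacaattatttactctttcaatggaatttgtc
Zbtb40: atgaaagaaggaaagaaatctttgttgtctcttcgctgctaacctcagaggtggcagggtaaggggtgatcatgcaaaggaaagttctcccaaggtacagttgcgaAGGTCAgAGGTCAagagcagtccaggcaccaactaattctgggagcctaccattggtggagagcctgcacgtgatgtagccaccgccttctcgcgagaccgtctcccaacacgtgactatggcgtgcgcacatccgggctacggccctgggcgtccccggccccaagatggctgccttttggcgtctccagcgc
Akr1b10: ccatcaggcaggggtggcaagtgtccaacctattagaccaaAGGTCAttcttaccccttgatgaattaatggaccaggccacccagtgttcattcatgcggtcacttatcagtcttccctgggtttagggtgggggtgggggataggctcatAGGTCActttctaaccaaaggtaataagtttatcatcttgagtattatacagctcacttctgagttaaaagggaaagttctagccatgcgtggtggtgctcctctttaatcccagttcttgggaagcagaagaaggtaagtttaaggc
Cdh7: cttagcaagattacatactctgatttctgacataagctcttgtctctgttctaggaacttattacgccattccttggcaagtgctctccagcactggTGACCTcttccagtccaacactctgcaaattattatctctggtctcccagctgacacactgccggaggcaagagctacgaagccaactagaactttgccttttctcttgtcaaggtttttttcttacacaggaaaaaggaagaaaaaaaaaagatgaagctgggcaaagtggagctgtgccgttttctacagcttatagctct
Gucy2f and Cdh7 hold 1 half-site each, starting 105 and 153 bases before the gene start, while Zbtb40 and Akr1b10 hold 2. Those of Zbtb40 lie 144 and 137 bases before the start and form a direct repeat spaced by 1 base. The table held a promoter for 12 of the 15 most lowered and 13 of the 15 most raised genes, and 3 (25.0%) and 1 (7.69%) of these hold the half-site on either strand, against 16.2% of 33469 promoters. The direct repeat, searched as AGGTCA, any base and AGGTCA again on either strand and so overlapping the half-site, is in 0.0538% of all promoters. The palindromic estrogen response element, GGTCA, any 3 bases and TGACC, was found in 0 of these 12 and 13 promoters and in 0.0269% of all. A match is a stretch of letters in this window and was not tested for binding.

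Steroid metabolism changed in both directions. Of 27 genes of steroid synthesis and inactivation, 4 were higher and 2 lower in T+high BPA (22.2% called, against 9.68% of all probe sets). Their median of -0.05 equals the median of all probe sets. Cyp17a1, the hydroxylase and lyase on the way to androgens, was at 4.42, 4.57 and 4.76 in T+high BPA against 7.36, 7.36, 8.33 and 7.43 in T+E2 (adjusted p = 9.29e-07). Hsd11b2, which inactivates glucocorticoids, was at 5.79, 5.64 and 6.09 in T+high BPA against 7.42, 7.91, 8.55 and 8.16 in T+E2 (adjusted p = 7.57e-05). The groups did not overlap in either gene, and Control was at 4.62 to 5.04 for Cyp17a1 and 5.65 to 6.25 for Hsd11b2, near T+high BPA. Ugt2b10 was at 6.71, 6.50 and 6.54 in T+high BPA against 4.37, 4.45, 4.23 and 3.95 in T+E2 (adjusted p = 1.53e-06). The hydroxysteroid dehydrogenases Hsd17b10, Hsd17b11 and Hsd17b4 rose by 0.98, 0.70 and 0.46. Among 37 xenobiotic enzymes, Ugt1a1, which conjugates bilirubin and estradiol, fell by 1.72, while Ephx1, the microsomal epoxide hydrolase, rose by 1.05 and Cyp2j4 by 0.58. Of the 37, 10.8% were called, and with the replicate number as a block 3 were higher and 3 lower.

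Of the estrogen receptor genes, Esr2 was called and Esr1 and Gper1 were not. Esr1 was at 6.20, 6.21 and 6.19 in T+high BPA and 6.14, 5.98, 6.29 and 6.07 in T+E2, and the interval of its difference was -0.12 to 0.27. Gper1, the membrane estrogen receptor, differed by 0.18 (adjusted p = 0.316). Esr2 was at 9.98, 10.11 and 9.54 in T+high BPA against 8.24, 8.89, 8.99 and 8.84 in T+E2, so all T+high BPA arrays lay above all T+E2 arrays (adjusted p = 0.00803). Pgr, the progesterone receptor gene that estrogen induces in many tissues, was at 6.14, 6.01 and 6.69 in T+high BPA and 7.02, 6.86, 6.77 and 6.80 in T+E2, and its difference of -0.59 was not called (adjusted p = 0.078). With the replicate number as a block Pgr was called (difference -0.67, limma adjusted p = 0.0371). Across 28 estrogen-responsive genes 2 were higher and 3 lower, a share of 17.9% called against 9.68% of all probe sets, with a median of -0.03. The block gave 2 higher and 4 lower. Besides Esr2, these were the lysosomal protease Ctsd, higher by 0.76, and the lower Agr2, Muc1 and Mybl1, the last by 0.77.

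Androgen-responsive genes gave 1 higher and 1 lower call among 22, a share of 9.09% called against 9.68% of all probe sets. With the replicate number as a block 3 were higher and 1 lower. Sord, the sorbitol dehydrogenase of seminal fluid sugar metabolism, rose by 1.29 (adjusted p = 0.000908). Tmprss2, the epithelial serine protease, was at 9.13, 9.40 and 9.39 in T+high BPA against 9.84, 10.21, 10.91 and 10.56 in T+E2 (adjusted p = 0.00711). Tgm4, the prostatic transglutaminase, ranged from 6.84 to 10.26 in T+high BPA and from 8.32 to 11.96 in T+E2, the groups overlapped, and its difference of -1.78 was not called (adjusted p = 0.241). Of 14 luminal epithelium markers 2 were higher and 1, Tmprss2, was lower (21.4% called), and 5 of the 14 had a difference below 0. The higher ones were Hoxb13, the homeobox factor of the prostate, by 1.24, and the luminal surface marker Prom1 by 0.46. The call on Prom1 was lost in 7 alternatives.

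Prolactin signalling gave 3 higher and 1 lower call among 16 genes (25% called, against 9.68% of all probe sets). Prlr, the prolactin receptor, was at 8.87, 10.28 and 8.44 in T+high BPA and 8.84, 10.40, 9.61 and 9.22 in T+E2, a difference of -0.32 with an interval of -1.47 to 0.83. Elf5, the factor that prolactin induces in mammary alveoli, was at 9.93, 9.57 and 9.37 in T+high BPA against 8.54, 8.15, 8.55 and 8.59 in T+E2 (adjusted p = 0.000744). Stat5a and Stat5b, the transducers of the prolactin signal, were higher by 0.65 and 0.42, with calls lost in 7 and 6 alternatives. Csn2, the milk protein beta-casein, was at 5.25, 5.18 and 5.33 in T+high BPA and 6.70, 9.51, 6.05 and 6.72 in T+E2, and T+E2 replicate 2 stood far above the other T+E2 arrays (adjusted p = 0.0376). The call on Csn2 was lost in 13 of the 27 alternatives that kept the threshold, but it was made without T+E2 replicate 2, with the ventral prostate covariate and with the 3 arrays high in ventral prostate genes left out.

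Hnf4a, the nuclear receptor of liver and gut, was at 5.66, 5.62 and 5.80 in T+high BPA and 5.77, 5.73, 5.58 and 5.80 in T+E2, with an interval of -0.45 to 0.39. Of 33 HNF4A and liver-type targets 2 were higher and 4 lower (18.2% called, against 9.68% of all probe sets). Their median was -0.17, against -0.16 over all probe sets with a level of 4 to 5, and it was -0.01 after quantile normalization. Abcg5 and Abcg8, the paired sterol exporters, fell by 1.44 and 1.06. Fgg and Fgb, chains of the same clotting protein, had Fgg higher by 1.28 and Fgb lower by 0.41. Each call was lost in 3 alternatives, for Fgb with quantile normalization and cyclic loess among them. Cyp27a1, a sterol hydroxylase, was higher by 0.87, with its call lost in 6 alternatives, and Alb was lower by 0.34 at values of 3.91 to 4.51, near the bottom of the scale, with its call lost in 11 alternatives.

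Genes of protein secretion and energy metabolism were called mainly on the higher side, as were 62.7% of all calls. At a level of 9 to 10, 168 of 1165 probe sets were called higher and 44 lower. Among 33 genes of endoplasmic reticulum stress and protein secretion, whose mean lies at that level, 12 were higher. In the same list 1, Trib3 with -0.26, was lower, and 39.4% were called against 9.68% of all probe sets. Derl3, which passes misfolded proteins to degradation, was at 7.45, 8.09 and 7.26 in T+high BPA against 5.60, 5.96, 6.42 and 6.10 in T+E2 (adjusted p = 0.000608). The chaperone Hyou1 rose by 0.96, the translocon subunit Sec61b by 0.87, the secreted stress protein Manf by 0.74 and the disulfide isomerase P4hb by 0.52. The list median of 0.38 compares with 0.10 over all probe sets at a level of 9 to 10. After quantile normalization 6 were higher, after cyclic loess 7, and 5 with the 3 arrays of high ventral prostate genes left out. The call on Trib3 was lost in 22 alternatives. Trib3 and P4hb, like Cpt1a and Dgat1 below, were chosen after their values were seen.

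In fatty acid oxidation, 8 of 27 genes were higher and 0 lower (29.6% called), with a median of 0.31. At a level of 7 to 8, where the list mean lies, 307 of 2952 probe sets were called higher and 74 lower. Acaa2, the last enzyme of the mitochondrial cycle, was at 9.77, 9.64 and 9.69 in T+high BPA against 8.07, 8.48, 8.88 and 8.68 in T+E2 (adjusted p = 0.00053). Hadh, Acadm and Decr1, further enzymes of the cycle, rose by 0.84, 0.72 and 0.71, and Cpt1a, the gate of entry into mitochondria, by 0.60, with its call lost in 6 alternatives. Oxidative phosphorylation had 6 higher and 0 lower calls among 29 genes, led by the complex I subunits Ndufc2 and Ndufs3, which rose by 0.92 and 0.64. Its mean lies at a level of 9 to 10, where 168 of 1165 probe sets were called higher and 44 lower. The count, 20.7% called, is near that share and is not read as a result. Of the 29 genes 27 had a difference above 0, with a median of 0.35 against 0.10 at that level. After quantile normalization the median was 0.24, with 4 higher calls and 1 lower. With the replicate number as a block it had 12 higher calls and 1 lower, and with the skeletal muscle mean as a covariate 18 higher.

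Glycerolipid synthesis had 7 higher and 0 lower calls among 26 genes (26.9% called, against 9.68% of all probe sets). Gpat4, which places the first fatty acid on glycerol phosphate, was at 9.11, 9.19 and 9.12 in T+high BPA against 7.60, 7.70, 7.95 and 8.14 in T+E2 (adjusted p = 4.82e-05). Control was at 7.82 to 8.22, close to T+E2, and Gpat4 was the 1 probe set of 17802 called between T+high BPA and Control (0.00562%), where it was 1.12 higher (adjusted p = 0.0098). In that second comparison, which shares the T+high BPA arrays, 1509 probe sets had an unadjusted p below 0.05 (8.48%). T+low BPA was at 8.88 to 9.11. The acyltransferases Agpat5 and Agpat3 rose by 1.04 and 0.97, the glycerol kinase Gk5 by 1.10, and Dgat1, which makes triglyceride, by 0.47, with its call lost in 12 alternatives. Of 18 cholesterol synthesis genes 0 were called by limma and 2 had an unadjusted p below 0.05. With the replicate block, with the skeletal muscle covariate and with the 3 arrays left out, 1 was higher each time. Their median of 0.38 was -0.08 once the mean of ventral prostate genes was a covariate. The list mean was highest in T+high BPA replicate 2, at 8.63, and Control replicate 4, at 8.91, which were both high in ventral prostate genes.

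**Figure D4:**
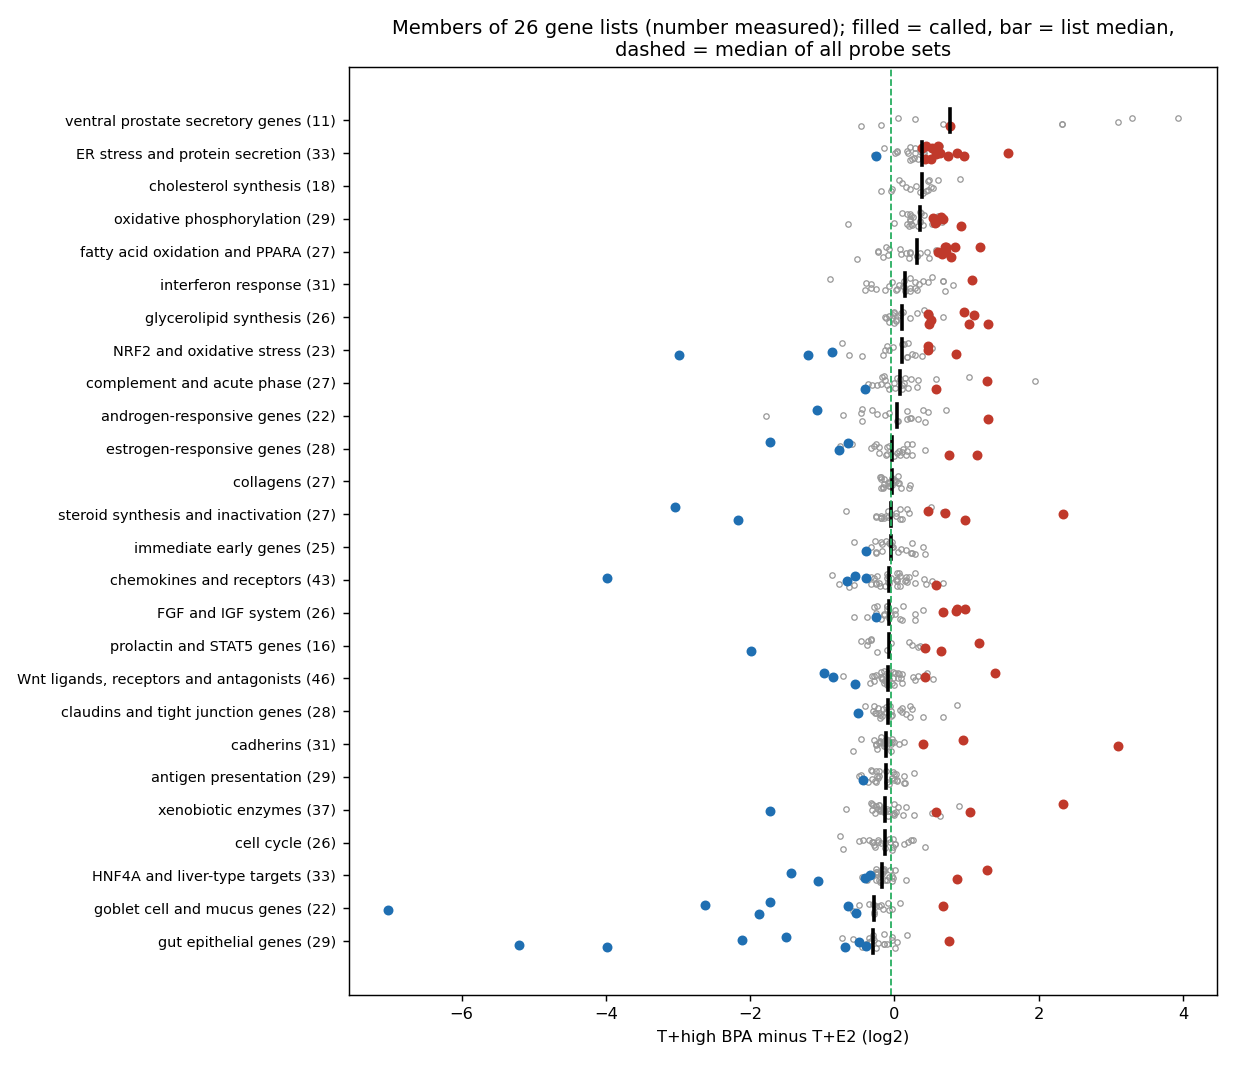
Difference between T+high BPA and T+E2 (log2) of each measured member of 26 functional gene lists, with the number measured in brackets and lists ordered by their median. Filled points were called (red higher, blue lower), the black bar is the list median and the dashed line the median of all probe sets, -0.05; the goblet cell and gut lists hold the points beyond -5, and the endoplasmic reticulum list has 12 red points.

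The largest rises were single genes of varied roles. Cdh7, a classical cadherin of neural and other tissues, was at 7.31, 7.15 and 7.28 in T+high BPA against 4.33, 3.82, 3.59 and 4.84 in T+E2 (difference 3.10, adjusted p = 3.86e-06). The T+E2 mean, 4.14, is near the 10th percentile of those arrays, 4.10 to 4.24, so the difference may be understated, which was not tested. T+low BPA and Control were at 7.07 to 7.67, so T+E2 alone was low. The comparisons of T+low BPA with T+E2, where 605 probe sets were called (3.4%), and of T+E2 with Control, where 535 were called (3.01%), share the T+E2 arrays. Cdh7 was 3.19 higher in T+low BPA than in T+E2, and T+E2 minus Control gave -3.23 (limma adjusted p = 1.11e-06). Plaat1, a phospholipid-remodelling enzyme, was at 8.22, 8.07 and 8.23 in T+high BPA against 6.83, 5.64, 6.36 and 6.19 in T+E2 (adjusted p = 0.000171). Nol10, a nucleolar protein, was at 10.22, 9.65 and 9.86 in T+high BPA against 8.53, 8.29, 8.10 and 8.36 in T+E2 (adjusted p = 0.000118). In neither gene did the groups overlap. Papss2, which makes the donor for sulfation, rose by 1.51, the antimicrobial peptide gene Defb1 by 1.44, the adhesion molecules Nrcam and Emb by 1.44 and 1.45, and the gamma protocadherin Pcdhgc3 by 1.48. Tmeff1, a transmembrane protein, rose by 1.48, Oxnad1, an oxidoreductase domain protein, by 1.43, and the nucleoside diphosphate kinase Nme2 by 1.42. Rabac1, a Rab GTPase partner, was at 11.11, 11.05 and 10.82 in T+high BPA and 8.44, 9.40, 10.36 and 9.82 in T+E2, and its call was lost in 3 alternatives, 1 of them without T+high BPA replicate 1.

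**Figure D5:**
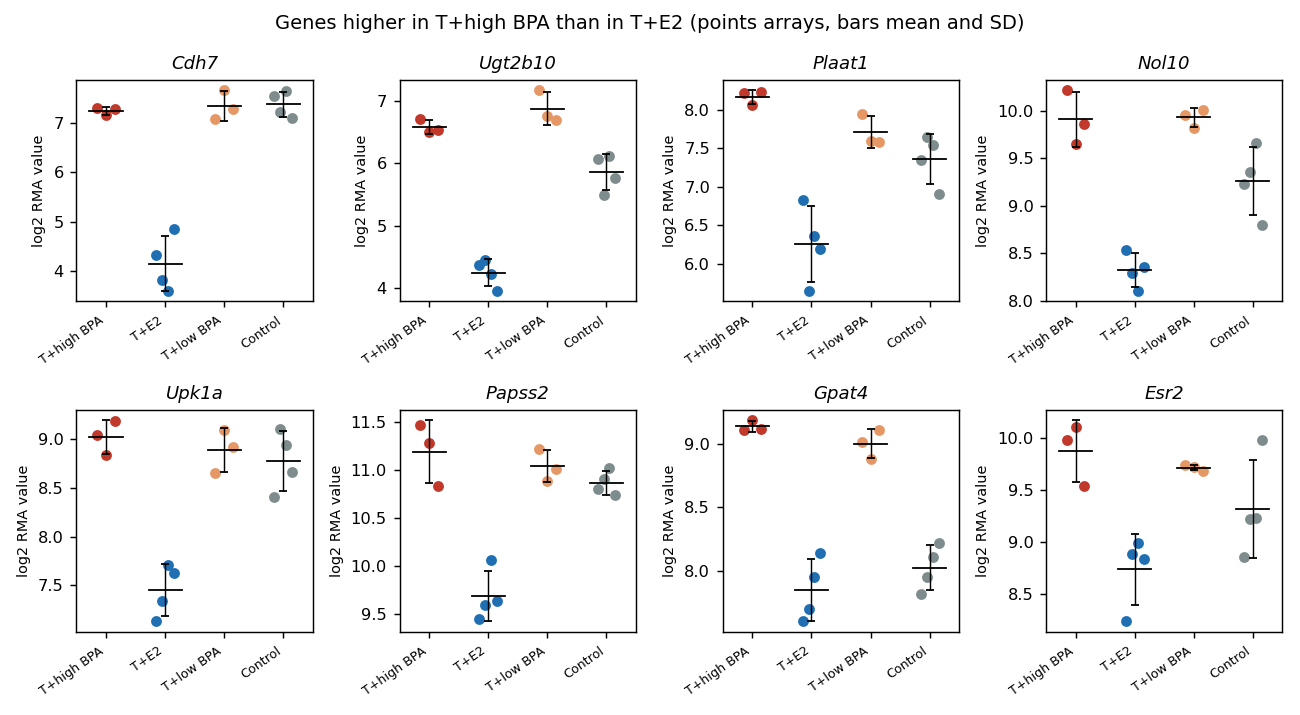
Log2 RMA values of 8 genes that were higher in T+high BPA than in T+E2; points are arrays, the horizontal bar is the group mean and the whisker its SD (n = 3, 4, 3 and 4 arrays). T+E2 is the low group in most panels, whereas for Gpat4 both T+E2 and Control lie below 8.3 and both bisphenol A groups above 8.8.

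Growth factor and Wnt genes changed singly. Of the FGF and IGF list 19.2% were called and of the Wnt list 10.9%, against 9.68% of all probe sets. Of 26 FGF and IGF genes 4 were higher and 1 lower: Fgf1 rose by 0.87, the receptors Igf1r and Igf2r by 0.86 and 0.67, and the binding protein Igfbp2 by 0.98, while Fgf21 was lower by 0.26. Among 46 Wnt genes, the secreted Wnt inhibitor Wif1 was at 9.41, 9.22 and 9.14 in T+high BPA against 7.73, 7.50, 8.02 and 8.18 in T+E2 (adjusted p = 0.00104). The R-spondin receptor Lgr4 fell by 0.97 and the receptor Fzd4 by 0.85, with no overlap of the groups in any of these genes. The ligand Wnt5a was lower by 0.54 (adjusted p = 0.045) and the receptor Fzd8 higher by 0.42, and like that of Fgf21 these calls were lost in 15 to 20 alternatives. Beside Cdh7, 2 of 31 cadherin genes were called, the desmocollins Dsc1 and Dsc2, higher by 0.95 and 0.39, and of 28 tight junction genes Cldn8 alone, lower by 0.50. Dsc2 lost its call in 11 alternatives and Cldn8 in 6. The cadherin list had 9.68% called, the same share as all probe sets, and the tight junction list 3.57%.

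Antioxidant genes changed in both directions. Slc7a11, the antiporter that brings cystine in for glutathione, was at 7.37, 6.88 and 7.62 in T+high BPA against 9.57, 10.23, 10.90 and 10.42 in T+E2 (adjusted p = 2.22e-05), with Control at or below 7.91. Gsta3, a glutathione transferase, fell by 1.20. The superoxide dismutases Sod2 and Sod1 and the peroxiredoxin Prdx6 were higher by 0.86, 0.46 and 0.47, and Sod1 lost its call in 9 alternatives and Sod2 in 1. Gpx3, a secreted glutathione peroxidase, was lower by 0.86 with an adjusted p of 0.049, and its call was lost in 19 alternatives. In all, 3 of 23 genes of this list were higher and 3 lower (26.1% called, against 9.68% of all probe sets).

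Cell division and immune genes gave few calls. Of the interferon, antigen presentation, B cell and immediate early lists 3.23%, 3.45%, 5.56% and 4% were called. The chemokine list had 11.6% called, against 9.68% of all probe sets. Of 26 cell cycle genes 0 were called by limma and 6 had an unadjusted p below 0.05, against 3 lower calls with the replicate block. Mki67, the proliferation marker, was at 6.74, 6.23 and 6.77 in T+high BPA and 7.64, 7.45, 6.96 and 7.09 in T+E2, all lower in T+high BPA without a call (adjusted p = 0.181), though with the block it was called (difference -0.91, limma adjusted p = 0.039). The interferon list had 1 higher call among 31 genes, the ubiquitin-like Isg15, at 6.91, 7.91 and 7.29 in T+high BPA against 5.88, 6.4, 6.62 and 6.27 in T+E2 (adjusted p = 0.00716). Among 29 antigen presentation genes Erap1, a peptide trimmer, was lower by 0.44. Beside Ccl25, the chemokines Cx3cl1 and Ccl19 and the receptor Cxcr1 were lower by 0.54, 0.66 and 0.39, and Cxcl14 was higher by 0.57. The calls on Erap1 and on these 4 genes were lost in 7 to 19 alternatives. Of 18 B cell and plasma cell markers 1, Derl3, was higher and 0 lower, against 7 lower with the replicate block. Jchain, which links secreted antibodies, was at 7.03, 6.91 and 7.87 in T+high BPA and 8.51, 8.36, 8.38 and 8.73 in T+E2 (difference -1.23, adjusted p = 0.0776, and 0.042 with the block), and it was chosen after its values were seen. Of 25 immediate early genes Jun was called, lower by 0.39.

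Among the marker lists of other cell types, the share called ranged widely around the 9.68% of all probe sets. Of 18 smooth muscle genes 4 were higher (22.2%). Tagln, an actin-binding protein, was at 11.47, 11.24 and 11.70 in T+high BPA against 10.16, 9.97, 10.66 and 10.53 in T+E2 (adjusted p = 0.00369), and Pcp4, Actg2 and Myl9 were higher by 0.98, 0.77 and 0.67, with calls lost in 4, 5 and 13 alternatives. After quantile normalization 1 of the 18 was called. Of the collagens, the endothelial and the skeletal muscle markers limma called 0, and 0 had an unadjusted p below 0.05. It also called 0 of the basal, fibroblast, neutrophil, neuroendocrine and T cell markers, where 2, 2, 2, 2 and 3 had an unadjusted p below 0.05. With the replicate block 1 basal, 1 fibroblast and 1 neutrophil marker were lower. The members nearest to a call were Dst, a cytoskeletal linker of basal cells (difference -0.63, adjusted p = 0.0564), and Ogn, a matrix proteoglycan (difference -0.81, adjusted p = 0.0596). Of 11 urothelium markers 3 were called (27.3%). The uroplakin Upk1a was at 9.04, 8.84 and 9.19 in T+high BPA against 7.13, 7.34, 7.71 and 7.63 in T+E2 (adjusted p = 0.000136). The transcription factors Gata3 and Foxq1 of the same list fell by 1.37 and 1.10. Of 12 adipocyte markers 1 was called (8.33%), the lipid droplet protein Cidea, higher by 1.05, while 9 of the 12 had a difference below 0. Of 11 mast cell markers 2 were called (18.2%), Gata2, higher by 0.55, and Fcer1a, lower by 0.41. Ncam1, C1qc, Ahsp and Svs4 were higher by 0.57, 0.58, 0.62 and 0.69, each 1 call on its list. Their lists were 11 nerve (9.09% called), 15 macrophage (6.67%), 6 erythrocyte (16.7%) and 7 seminal vesicle markers (14.3%). In these lists 6, 5, 2 and 6 members, in that order, had a difference below 0. Of these single calls and the mast cell markers, C1qc, Ncam1 and Fcer1a lost their calls in 8, 11 and 19 alternatives. Svs4, Gata2 and Ahsp lost theirs in 4, 2 and 1.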

How the data were processed

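RNA of 14 lateral prostate samples was measured on 1-colour arrays. The deposited values are log2 expression values per probe set, made by the authors with RMA per the submitters' processing notes, with the version not given in the sources used here. Of the 17802 probe sets, 16134 had 1 gene symbol and 1668 had none and stay unnamed. Symbols were updated through the RefSeq gene table of GRCr8.

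The 4 groups were fitted together with limma 3.58.1 in R 4.3.3 (lmFit and eBayes, 10 residual degrees of freedom), without a further filter or normalization, and the fit was tested on simulated data. Same-numbered T+high BPA and T+E2 arrays deviated together (r = 0.171, 0.428 and 0.137), but same-numbered pairs with Control included negative values (-0.451 for T+high BPA, -0.309 for T+E2 and -0.296 for T+low BPA at number 2, -0.109 for T+E2 at number 4), and the labels do not say what a number stands for. The block was therefore an alternative, fitted on all 14 arrays and on the 7 compared. Others changed normalization, dim probe sets, tissue covariates, prior, weights, threshold or arrays. The precision is limited by 3 and 4 arrays.

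Genes named are the 15 largest differences in each direction among calls with no overlap of arrays, leaving out serially numbered families, up to 6 called members of each of 44 gene lists (the 3 with the smallest p where 0 were called) and genes followed whatever their result. The lists, the followed genes and the comparison were chosen with earlier results of these data known, so they are descriptions without a test of their own.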

Additional observations from a re-analysis of the deposited data

Results flagged for a closer look

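In 17 of 269 groups of 4 arrays examined, 1 array stood apart from the other 3 by a criterion that chance meets in about 5% of groups. The count is close to that rate, so the values below are listed as seen and not read as traits of the arrays. Of the 149 named calls between T+high BPA and T+E2, 0 changed sign when 1 array was left out. Of all 1724 calls 1678 had no overlap of arrays, so this outcome was largely fixed in advance.

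T+E2 replicate 3 had the highest Cyp17a1, at 8.33 against 7.36 to 7.43 in the other T+E2 arrays, and the highest Wnt5a, at 6.44 against 6.11 to 6.14. Its mean of seminal vesicle markers was 7.19, against 7.29 to 7.30.

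T+E2 replicate 1 was high for Alb, at 4.51 against 4.30 to 4.33, and for the leptin receptor gene Lepr, at 7.96 against 7.30 to 7.36. It was low for the sterol synthesis enzyme Lss, at 6.92 against 7.65 to 7.75, and for Cx3cl1, at 7.25 against 7.62 to 7.68. Its mean of goblet cell and mucus genes was 7.30, against 7.50 to 7.53.

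T+E2 replicate 2 was low for Elf5, at 8.15 against 8.54 to 8.59, and for the odorant binding protein gene Obp2a, at 6.53 against 6.88 to 6.93. It was high for the metallothionein Mt3, at 7.42 against 7.24 to 7.25, and its mean of erythrocyte markers was 5.31, against 5.99 to 6.09. T+E2 replicate 4 was low for Erap1, at 9.47 against 9.67 to 9.71.

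Control replicate 1 had high values of 3 genes that were low in the other Control arrays: 7.04 against 4.79 to 5.11 for Adgrg7, 5.27 against 3.97 to 4.17 for Ccl25 and 4.63 against 3.90 to 3.98 for Khdrbs2. Control replicate 4, the Control array with high ventral prostate genes, was low for Defb1, at 9.58 against 10.40 to 10.53.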

How the results depend on the processing

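The 1724 calls (1081 higher, 643 lower) became 2870 (1665 higher, 1205 lower) with array weights, 567 (342, 225) at an adjusted p below 0.01, 2970 (1706, 1264) below 0.1 and 229 (95, 134) at 2-fold or more. Leaving out 1 array gave 884 to 2579 calls, 569 to 1554 higher and 315 to 1025 lower. The lowest was without T+high BPA replicate 1 and the highest without Control replicate 4. Lower calls were 415 without T+E2 replicate 4. Higher calls were 711 after cyclic loess and 706 after quantile normalization. With the replicate number as a block 2010 were called, and 963 (602 higher, 361 lower) when the block was fitted on the 7 arrays alone, an alternative added after seeing the data. The share of calls that were higher was 62.7%, against 69.8% after median centring and 41.5% at 2-fold or more. Of 149 named calls, 118 were kept after quantile normalization, 122 after cyclic loess and 138 with the block in all arrays. With the block in 7 arrays 108 were kept, and 106 without T+high BPA replicate 1. In the 30 alternatives 0 changed sign, an outcome largely fixed in advance by the choice of called genes. The causes of the changes in calls were not tested.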

Other observations

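Olfactory receptor genes had been left out of the naming rule, and the following was chosen after their values were seen. Of 1083 measured, 61 were lower in T+high BPA and 0 higher (5.63% called, against 9.68% of all probe sets). Most are dim, with a median level of 3.94, and their median difference of -0.18 is close to the -0.15 of all probe sets below 4. After quantile normalization 13 were lower and 0 higher, with a median of -0.03, so the count over the family is not read as a result. Of the 9 that were lower by at least 2-fold, 8 lie in 1 run of 15 neighbouring genes on chromosome 1 of GRCr8, beside the beta-globin genes. The ends of the run were set by the outermost of these 8, which are also all of its measured genes. Their differences were from -1.10 for Or51b6 to -2.53 for Or51q1. Or51q1 was at 5.21, 5.29 and 5.43 in T+high BPA against 7.30, 7.90, 8.32 and 7.86 in T+E2 (limma adjusted p = 9.95e-07). Or51k1 was at 4.70, 4.84 and 4.77 in T+high BPA against 6.86, 7.25, 7.25 and 7.0 in T+E2 (limma adjusted p = 6.99e-08). The calls on Or51q1, Or51k1 and Or51i1 were kept in all 27 alternatives that left the threshold as it was. Control was at 5.24 to 5.58 for Or51q1 and 4.66 to 5.10 for Or51k1, near T+high BPA. At 1 end the difference was -2.37 for Or51i1 and -0.05 for the next measured gene, Or51i2. At the other end the next measured gene, Or51b17, was also called lower (-0.95, limma adjusted p = 0.000142). It was left out of the run by the 2-fold limit. Of 17 measured genes on both sides 3 were lower, and the globin genes Hbb and Hbb-b1 differed by 0.85 and 0.83 without a call. Genes of this family are alike in sequence, so their probe sets may share signal, which was not tested.

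Other large differences chosen after their values were seen concern growth factor and lipid signals. Hgf, the stromal growth factor that acts on epithelium through Met, was at 7.84, 7.89 and 8.34 in T+high BPA against 10.95, 10.28, 10.33 and 9.92 in T+E2 (limma adjusted p = 0.000171), with no overlap. The phospholipase Pla2g10 fell by 2.49, and the aldo-keto reductase Akr1c15 had a difference of -2.38. Lower values were also found for the kinase Sgk1 (-1.64), the transcription factor Klf5 (-1.41), the prohormone convertase Pcsk1 (-1.38) and the insulin receptor substrate Irs1 (-1.35). On the higher side were the inositol transporter Slc5a3 by 1.33, the calcium channel Cacna1d by 1.30 and Mt3 by 1.26.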
